A study of Mus musculus with 6 samples.

Results

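Fibre cells of the ocular lens lose their nuclei and other organelles as they mature, and 8 genes tied to that removal were examined here in newborn Fyco1-/- mouse lenses. The genes were chosen by symbol, and all 8 were found among the 22298 entries of the table. They are the nuclease gene Dnase2b, the autophagy genes Trp53inp1 and Trp53inp2, the lamin genes Lmna, Lmnb1 and Lmnb2, the lamin B receptor gene Lbr, and the caspase gene Casp6. RNA came from whole lenses of Fyco1-/- mice and of wild-type (WT) mice, all labelled C57BL/6 and all taken at postnatal day 0. Each genotype has 3 libraries, A, B and C, and each library stands for a pool of 10 lenses. How the Fyco1 allele was disrupted is not given in the sources used here.

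As background, denucleation of lens fibres ends with DNA digestion by DNase II beta, the product of Dnase2b, an acid endonuclease that reaches the nucleus from lysosomes. Mice without it keep nuclear DNA in the lens core and develop cataract. The lamina, a mesh of lamins under the nuclear membrane, is taken apart on the way, and caspases can cut lamins. Fyco1 links autophagosomes to kinesin motors on microtubules.

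Values are FPKM, fragments scaled to gene length and library depth, so levels of different genes are compared per length. The libraries hold an estimated 17.1 to 20.1 M reads, and the 8 genes rest on about 146 (Trp53inp1) to 2547 (Dnase2b) estimated reads in a library. Crystallin genes held 70.2% to 71.7% of all FPKM, and the 12 fibre markers summed to 119700 to 122600 FPKM in Fyco1-/- and 119500 to 123000 FPKM in WT libraries. Fyco1 itself stood at 4.61, 4.59 and 4.87 FPKM in the Fyco1-/- libraries, against 5.40, 5.21 and 5.11 FPKM in the WT libraries. That difference, without overlap, was not called (limma adjusted p = 0.273), so a value over the whole gene does not check the genotypes, which rest on the labels.

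One member rose in Fyco1-/- lenses, Trp53inp2, by 1.60-fold in mean FPKM. None of the 8 fell past the threshold, a limma adjusted p under 0.05, which 8.43% of the 12001 tested genes passed, 3.42% higher and 5.02% lower in Fyco1-/-. At an unadjusted p under 0.05 the count was 3 of 8, against 24.4% of all tested genes. The genotypes did not overlap for 4 of the 8, against 29.7% of all tested genes. Of these, Trp53inp2 was higher in Fyco1-/- (11.1% of tested genes) and Lmna, Lmnb1 and Lbr were lower (18.6% of tested genes). The median log2 fold change of the 8 was -0.16, with 3 positive and 5 negative values, beside a median of -0.04 over all tested genes.

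**Figure D1:**
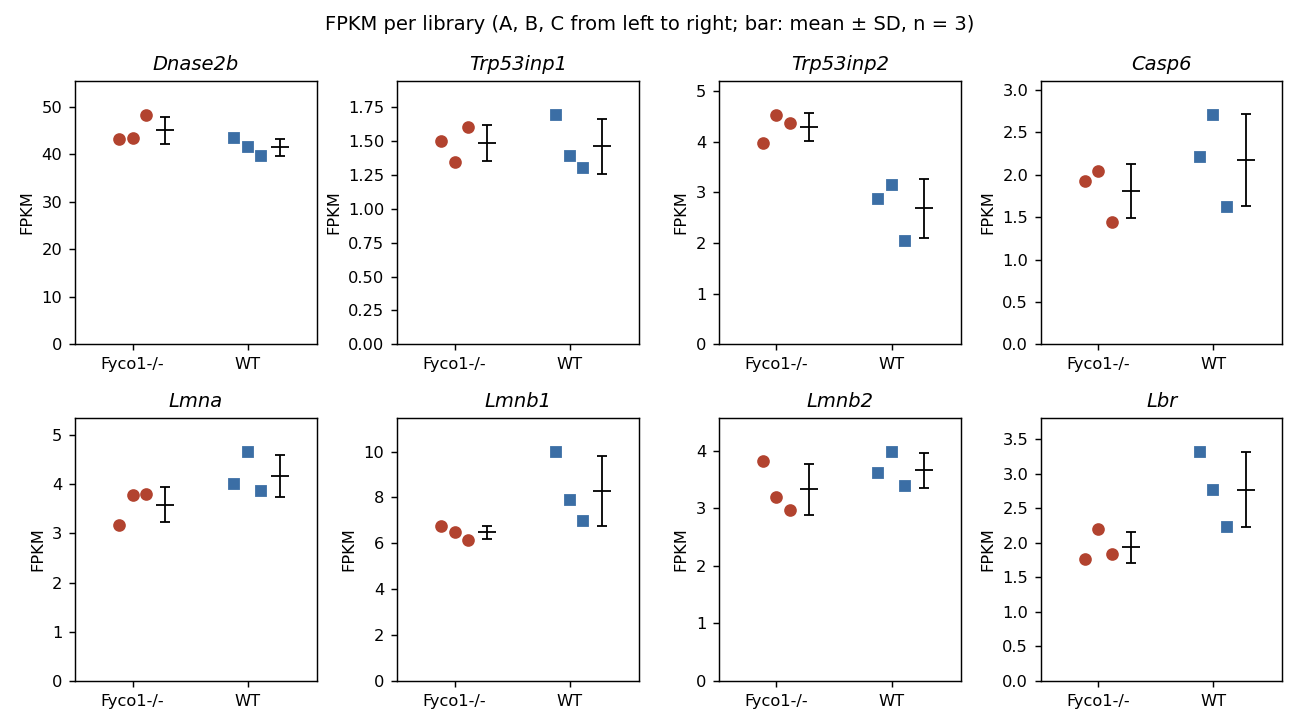
FPKM of the 8 genes in each library, with Fyco1-/- as circles and WT as squares, libraries A, B and C from left to right, and the mean with its SD beside them (n = 3 per genotype). The Fyco1-/- libraries of Trp53inp2 sit between 3.97 and 4.52 FPKM, above the WT libraries at 2.03 to 3.14 FPKM, and those of Lmnb1, Lbr and Lmna sit below their WT libraries.

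The nuclease gene Dnase2b was by far the highest of the 8, above 93.5% of tested genes. Because Dnase2b in the mouse lens is known to depend on the heat shock factor HSF4, the sequence around its RefSeq start is shown. The window runs from 250 bases before to 50 bases after that start. It is shown beside the same window around a RefSeq start of Trp53inp2, the member that rose. The capitals mark a pair of inverted heat shock units, written GAANNTTC, at bases -230 to -223 of the Dnase2b window. Both sequences are from RefSeq, build GRCm38.p6, at chr3:146615549-146615848 on the minus strand and chr2:155381606-155381905 on the plus strand. The Trp53inp2 window lies wholly inside the GENCODE span of that gene, which begins at 155381059, so it is not the region before the gene.
Dnase2b: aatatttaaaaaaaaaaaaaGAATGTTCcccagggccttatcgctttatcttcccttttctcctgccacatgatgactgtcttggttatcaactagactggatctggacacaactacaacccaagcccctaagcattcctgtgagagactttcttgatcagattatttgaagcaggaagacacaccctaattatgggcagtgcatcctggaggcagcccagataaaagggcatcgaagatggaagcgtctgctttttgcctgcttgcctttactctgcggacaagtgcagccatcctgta
Trp53inp2: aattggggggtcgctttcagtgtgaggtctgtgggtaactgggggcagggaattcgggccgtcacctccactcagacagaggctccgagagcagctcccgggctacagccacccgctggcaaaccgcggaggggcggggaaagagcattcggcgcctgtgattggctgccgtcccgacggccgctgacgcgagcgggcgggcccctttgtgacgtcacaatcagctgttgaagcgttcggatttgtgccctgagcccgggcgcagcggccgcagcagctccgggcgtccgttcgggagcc

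Windows of this kind were used for 6 of the 8 genes, all but Lmnb1 and Trp53inp1, with 2 windows each for Lmna and Lmnb2. GAANNTTC, which reads the same on both strands, stood in 7.86% of the 32851 windows of all genes, and TTCNNGAA, the other arrangement of the pair, in 8.52%. Among the members, TTCNNGAA stood in 1 of the 2 Lmna windows, and the p53 half-site, searched on both strands, in the other, beside 8.36% of all windows. The window of Trp53inp2 held none of these letters. That window, those of Lmna and Lbr and 1 of Lmnb2 lie wholly inside the GENCODE span of their gene. A match describes the letters of a window and is no measure of binding.

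Dnase2b (ENSMUSG00000028185, minus strand of GRCm38 chromosome 3, 146580985 to 146615596) stood at 43.3, 43.5 and 48.1 FPKM in Fyco1-/- libraries A, B and C, against 43.3, 41.4 and 39.7 FPKM in the WT libraries. The genotypes met where Fyco1-/- A and WT A had almost the same value. Dnase2b averaged 45.0 ± 2.76 FPKM in Fyco1-/- and 41.5 ± 1.81 FPKM in WT lenses (SD, n = 3 each), and its log2 fold change of 0.11 was not called (SE 0.06, 95% interval -0.01 to 0.24, limma adjusted p = 0.242). In the authors' deposited table Dnase2b has a log2 fold change of 0.16 with an adjusted p of 0.0926. Hsf4, which encodes that heat shock factor, rose to 175, 167 and 171 FPKM in Fyco1-/-, against 143, 145 and 146 FPKM in WT libraries (log2 0.24, limma adjusted p = 0.00235). For Hsf4 the genotypes lay far apart in every library.

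Every other deoxyribonuclease gene tested was below Dnase2b, the next being Apex1, whose product also repairs DNA, at a mean of 5.89 FPKM. Dnase2a, which encodes the widely expressed lysosomal relative of DNase II beta, stood at 0.0782, 0.151 and 0.103 FPKM in Fyco1-/- and 0.0287, 0.171 and 0.0705 FPKM in WT libraries. These values rest on an estimated 3 to 19 reads, and Dnase2a was too low to be tested. Of its 5389 exon bases, 1616 overlap other genes, among them Mast1 on the opposite strand. Near-identical stretches shared with other genes reached 1341 bases. The ratio of Dnase2b to Dnase2a ran from 288 to 553 in Fyco1-/- and from 242 to 1507 in WT libraries, with overlap (exact permutation p = 0.6). Of 15 deoxyribonuclease genes listed, 9 were tested and limma called none (1 had an unadjusted p under 0.05), with a median log2 fold change of 0.11. That 1 gene was Dnase1l1, of the DNase I family, at 0.957 ± 0.272 FPKM in Fyco1-/- and 1.37 ± 0.171 FPKM in WT lenses (limma adjusted p = 0.195).

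Trp53inp2 encodes a protein that leaves the nucleus when autophagy is induced and binds LC3 and GABARAP family proteins on autophagosomes. Its relative Trp53inp1, a target gene of p53, encodes a protein that binds them too. Trp53inp2 (ENSMUSG00000038375, plus strand of GRCm38 chromosome 2, 155381059 to 155389850) stood at 3.97, 4.52 and 4.36 FPKM in Fyco1-/- libraries A, B and C, against 2.87, 3.14 and 2.03 FPKM in the WT libraries. The groups did not overlap, and WT C was the lowest library. Trp53inp2 averaged 4.28 ± 0.280 FPKM in Fyco1-/- and 2.68 ± 0.576 FPKM in WT lenses, a log2 fold change of 0.60 (SE 0.13, 95% interval 0.31 to 0.90, limma adjusted p = 0.022). In the authors' deposited table Trp53inp2 has a log2 fold change of 0.60 with an adjusted p of 7.78e-05, and it is the 1 member of 8 under 0.05 there, where 9.37% of the 13066 genes with an adjusted p are. The limma call was lost without Fyco1-/- B (adjusted p = 0.077), without Fyco1-/- C (adjusted p = 0.0671) and with no filter on low genes (adjusted p = 0.0739). Over all 15 other settings, adjusted p ran from 0.0102 to 0.077 and the log2 fold change from 0.45 to 0.71.

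Trp53inp1 (ENSMUSG00000028211, plus strand of GRCm38 chromosome 4, 11156431 to 11174379) stood at 1.50, 1.35 and 1.61 FPKM in Fyco1-/- and 1.69, 1.39 and 1.30 FPKM in WT libraries, with overlapping groups. Its log2 fold change was 0.02, with a 95% interval of -0.26 to 0.30 (limma adjusted p = 0.938). Within a library, Trp53inp2 stood at 2.64, 3.35 and 2.71 times Trp53inp1 in Fyco1-/- A, B and C, against 1.70, 2.25 and 1.56 times in WT A, B and C. The ratio was higher in every Fyco1-/- library than in any WT library, by 0.67 on the log2 scale. The exact two-sided permutation p was 0.1, the smallest that 3 against 3 libraries can give (0.35 adjusted over the 7 ratios compared).

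The 11 tested genes in a list of TP53INP proteins and their partners had a median log2 fold change of 0.01. Among them 2 rose and none fell, beside 3.42% and 5.02% of all tested genes. Besides Trp53inp2 this was Gabarapl1, which encodes an autophagosome protein of the GABARAP family, at 132, 126 and 137 FPKM in Fyco1-/- and 105 FPKM in each of the WT libraries (log2 0.32, limma adjusted p = 0.00083). Of the Gabarapl1 exon bases, 570 overlap a gene of the opposite strand. Trp53 stood at 4.98 ± 0.425 FPKM in Fyco1-/- and 5.65 ± 0.537 FPKM in WT lenses and was not called (limma adjusted p = 0.325).

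**Figure D2:**
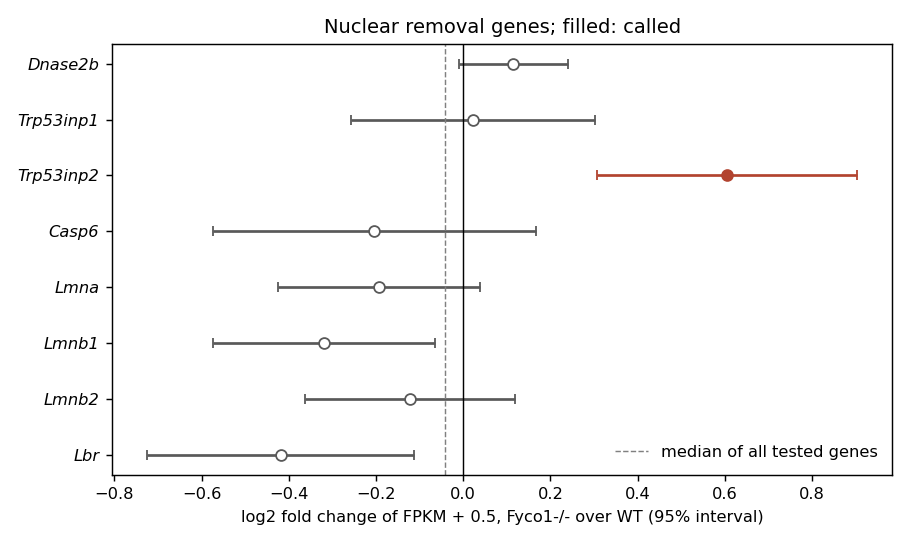
Log2 fold changes of FPKM + 0.5, Fyco1-/- over WT, with 95% intervals from limma, for the 8 genes, filled where called. Trp53inp2 (0.60) is called higher, the intervals of Lmnb1 and Lbr lie below 0 without a call, and the dashed line marks the median of all tested genes.

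The lamins line the inner face of the nuclear envelope. Lmna yields lamins A and C by splicing, which the table gives as 1 value, and Lmnb1 and Lmnb2 encode the B-type lamins, which a lipid keeps anchored in the membrane. Lmnb1 (ENSMUSG00000024590, plus strand of GRCm38 chromosome 18, 56707813 to 56753424) stood at 6.76, 6.50 and 6.16 FPKM in Fyco1-/- libraries A, B and C, against 9.98, 7.88 and 6.99 FPKM in the WT libraries. The Fyco1-/- libraries lay close together below WT, and the WT libraries spread more widely with A on top. Lmnb1 averaged 6.47 ± 0.298 FPKM in Fyco1-/- and 8.28 ± 1.53 FPKM in WT lenses, and its log2 fold change of -0.32 was not called (SE 0.11, 95% interval -0.57 to -0.06, limma adjusted p = 0.118).

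Lmna (ENSMUSG00000028063, minus strand of GRCm38 chromosome 3, 88480147 to 88509956) stood at 3.18, 3.78 and 3.80 FPKM in Fyco1-/- and 4.003, 4.65 and 3.86 FPKM in WT libraries. The groups did not overlap, but Fyco1-/- C and WT C were close. Its log2 fold change was -0.19 (SE 0.10, 95% interval -0.42 to 0.04, limma adjusted p = 0.286). Lmnb2 (ENSMUSG00000062075, minus strand of GRCm38 chromosome 10, 80901203 to 80918245) stood at 3.82, 3.20 and 2.97 FPKM in Fyco1-/- and 3.61, 3.98 and 3.38 FPKM in WT libraries. Fyco1-/- A lay among the WT libraries, and the log2 fold change was -0.12 (95% interval -0.36 to 0.12, limma adjusted p = 0.537).

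Summed over the 3 lamin genes, the level was 13.8, 13.5 and 12.9 FPKM in the Fyco1-/- libraries, against 17.6, 16.5 and 14.2 FPKM in the WT libraries, each in the order A to C. Every Fyco1-/- library was below every WT library in that sum, though Fyco1-/- A and WT C were close. The sum was not tested, and none of the 3 genes was called. Of single tested genes, 18.6% were lower without overlap. Lmnb1 made up 47.7% to 49.1% of the sum in Fyco1-/- and 47.7% to 56.7% in WT libraries. Lmna made up 23.1% to 29.4% in Fyco1-/- and 22.8% to 28.2% in WT libraries. The shares overlapped, as did the ratios within a library. Lmna to Lmnb1 ran from 0.470 to 0.617 in Fyco1-/- and from 0.401 to 0.591 in WT, a difference of 0.12 on the log2 scale (exact permutation p = 0.6). Lmnb2 to Lmnb1 ran from 0.481 to 0.565 in Fyco1-/- and from 0.362 to 0.505 in WT, a difference of 0.20 (exact permutation p = 0.5).

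Lbr encodes a protein of the inner nuclear membrane that binds B-type lamins and heterochromatin and also carries a sterol reductase domain. Lbr (ENSMUSG00000004880, minus strand of GRCm38 chromosome 1, 181815335 to 181843046) stood at 1.76, 2.19 and 1.84 FPKM in Fyco1-/- libraries A, B and C, against 3.31, 2.76 and 2.23 FPKM in the WT libraries. The groups did not overlap, though Fyco1-/- B and WT C were close. Its log2 fold change of -0.42 was the most negative of the 8 (SE 0.14, 95% interval -0.72 to -0.11) and was not called (limma adjusted p = 0.0955). Without WT C, the lowest WT library for both genes, Lbr (log2 -0.54, limma adjusted p = 0.0441) and Lmnb1 (log2 -0.43, limma adjusted p = 0.0477) passed the threshold. In the other 14 settings limma adjusted p ran up to 0.271 for Lbr and 0.293 for Lmnb1, with no call. Of the 4761 exon bases of Lbr, 509 overlap other genes, among them Dnah14 on the opposite strand, and strand handling is not given in the sources used here. The ratio of Lmna to Lbr was 1.80, 1.73 and 2.07 in Fyco1-/- and 1.21, 1.69 and 1.73 in WT libraries (exact permutation p = 0.2), with a narrow overlap.

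**Figure D3:**
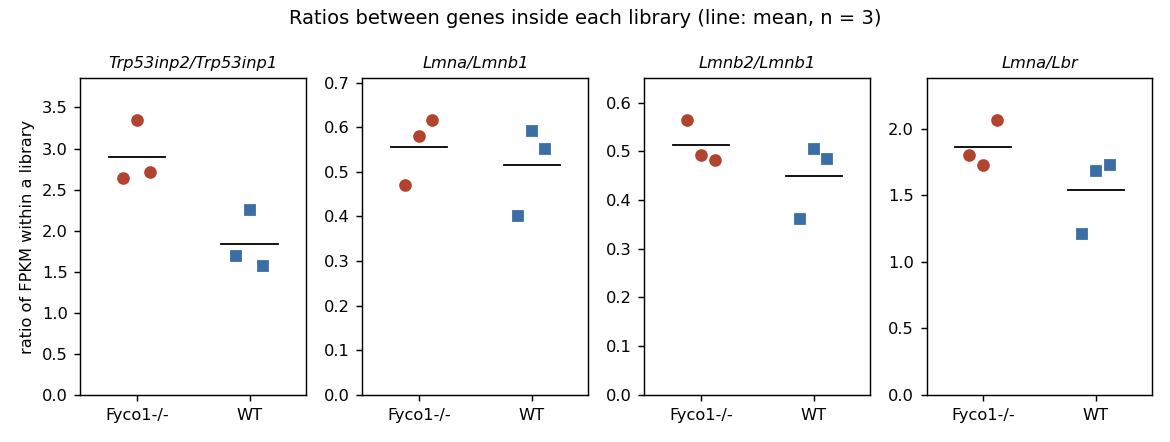
Ratios of FPKM between genes inside each library, with Fyco1-/- as circles, WT as squares, libraries A, B and C from left to right and a line at the mean of 3. Trp53inp2 over Trp53inp1 is higher in all 3 Fyco1-/- libraries than in any WT library, while the 3 ratios among the lamin genes and Lbr overlap.

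Among 20 tested genes of the lamina and inner nuclear membrane, none rose and 1 fell, beside 3.42% and 5.02% of all tested genes. A negative log2 fold change was found for 18 of the 20, beside 7192 of the 12001 tested genes. The median was -0.14, and -0.09 over the 16 genes other than Lmna, Lmnb1, Lmnb2 and Lbr. Some of the 18 negative values lay between 0 and the median of all tested genes (-0.04). The genes with those values have a positive log2 fold change in the authors' deposited table. Tmem43, which encodes a protein of the inner nuclear membrane, fell to 5.42, 6.08 and 5.84 FPKM in Fyco1-/-, against 7.61, 7.25 and 7.03 FPKM in WT libraries (log2 -0.31, limma adjusted p = 0.0316). Its call was lost when any library but WT C was left out (adjusted p = 0.0545 to 0.107), with no filter (adjusted p = 0.0739) and under the letter block (adjusted p = 0.0566). In the authors' deposited table Tmem43 has an adjusted p of 0.115. Tmpo, which encodes lamina-associated polypeptide 2, was named after its value was seen. It stood at 6.49, 6.88 and 5.39 FPKM in Fyco1-/- and 8.78, 8.59 and 7.06 FPKM in WT libraries, without overlap, and was not called (log2 -0.36, limma adjusted p = 0.0745). It passed the threshold under the letter block (adjusted p = 0.0252) and without WT C (adjusted p = 0.0399), within a range of 0.0252 to 0.207 over the 15 other settings, and in the authors' deposited table its adjusted p is 0.0334. Of 7 genes that process or bind prelamin, 1 fell and none rose, beside 5.02% and 3.42% of all tested genes. It was Narf, whose product binds the tail of prelamin A, at 14.2 ± 0.185 FPKM in Fyco1-/- and 17.6 ± 1.02 FPKM in WT lenses (limma adjusted p = 0.0136, or 0.0511 after median-of-ratios scaling).

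None of 27 nuclear pore genes was called by limma, and 4 had an unadjusted p under 0.05. Nup210 stood at 2.48 ± 0.183 FPKM in Fyco1-/- and 3.32 ± 0.329 FPKM in WT lenses (limma adjusted p = 0.065), and in the authors' deposited table its adjusted p is 0.0211. Nup62, of the central channel, stood at 12.6 ± 1.14 FPKM in Fyco1-/- and 10.6 ± 0.535 FPKM in WT lenses (limma adjusted p = 0.101), with 0.0418 in the authors' deposited table. Those pore genes thus lay on opposite sides of WT. Nup210 passed the limma threshold without WT C (adjusted p = 0.0468) and Nup62 without Fyco1-/- B (adjusted p = 0.0477).

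Casp6 encodes caspase 6, a protease that cuts lamin A in dying cells. Casp6 (ENSMUSG00000027997, plus strand of GRCm38 chromosome 3, 129901425 to 129914103) stood at 1.93, 2.04 and 1.45 FPKM in Fyco1-/- libraries A, B and C, against 2.21, 2.70 and 1.62 FPKM in the WT libraries. The groups overlapped, and library C was the lowest of each genotype. Casp6 averaged 1.81 ± 0.317 FPKM in Fyco1-/- and 2.18 ± 0.543 FPKM in WT lenses (log2 -0.20, 95% interval -0.57 to 0.17, limma adjusted p = 0.498).

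A list held 20 tested genes, those of caspase activators and inhibitors with the substrate gene Parp1. None rose and 1 fell, beside 3.42% and 5.02% of all tested genes. It was Parp1, which encodes a DNA repair enzyme that caspases cut, at 15.1 ± 1.12 FPKM in Fyco1-/- and 18.1 ± 0.647 FPKM in WT lenses (log2 -0.26, limma adjusted p = 0.0398). The Parp1 call was lost with no filter (adjusted p = 0.1) and when any library but Fyco1-/- A was left out (adjusted p = 0.0644 to 0.13).

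Of 30 tested genes in a list on denucleation and organelle loss, 2 rose and 3 fell, beside 3.42% and 5.02% of all tested genes. The list had a median log2 fold change of -0.13 and 22 negative values. At an unadjusted p under 0.05 (limma) the count was 15 of 30, against 24.4% of all tested genes. The list was chosen with earlier results of these data known, so that count is a description and no test of the list. Some listed genes without a limma call have an adjusted p under 0.05 in the authors' deposited table, in both directions. Besides Hsf4, Pink1, the gene of a kinase that marks damaged mitochondria, rose to 17.3 ± 1.70 FPKM in Fyco1-/-, against 14.1 ± 0.550 FPKM in WT lenses (limma adjusted p = 0.0426, named after its value was seen). The Pink1 call was lost with no filter (adjusted p = 0.113) and when any library but Fyco1-/- A was left out (adjusted p = 0.0772 to 0.139). Cdkn1c, whose product p57 takes fibre cells out of the cell cycle, fell to 453 ± 18.5 FPKM in Fyco1-/-, against 590 ± 2.19 FPKM in WT lenses (limma adjusted p = 0.000147), and 625 of its exon bases overlap a gene of the opposite strand. The fibre homeobox gene Prox1 fell to 77.5 ± 0.957 FPKM in Fyco1-/-, against 88.0 ± 0.951 FPKM in WT lenses (limma adjusted p = 0.0131, or 0.0992 after median-of-ratios scaling and 0.0579 without WT A). Pax6, a regulator of eye development, fell to 31.8 ± 0.632 FPKM in Fyco1-/-, against 36.5 ± 1.62 FPKM in WT lenses (limma adjusted p = 0.0398). The Pax6 call was lost with no filter (adjusted p = 0.0923), after median-of-ratios scaling (adjusted p = 0.0614) and when any library but WT C was left out (adjusted p = 0.0627 to 0.134).

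**Figure D4:**
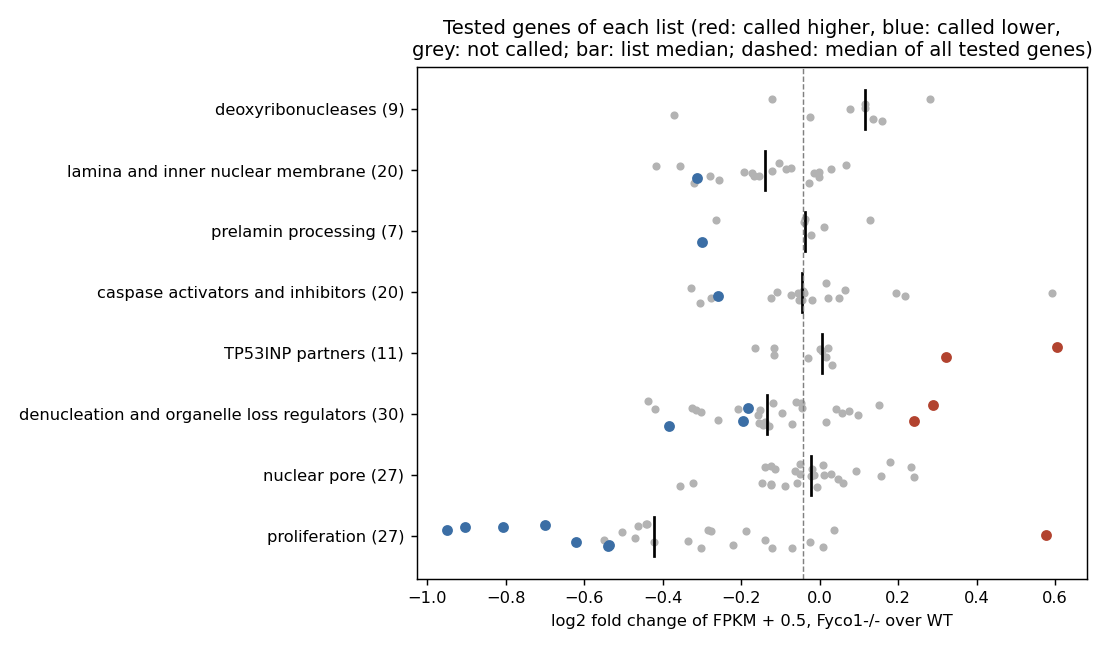
Log2 fold changes of FPKM + 0.5, Fyco1-/- over WT, for the tested genes of each list (number in brackets), with red for called higher, blue for called lower, grey for not called, a bar at the list's median and a dashed line at the median of all tested genes. The lamina list has 18 of 20 genes below 0, and the proliferation list has a median of -0.42.

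Levels in bulk RNA depend on which cells a lens holds, and fewer cells of a type and less RNA per cell cannot be told apart. The proliferation list shares Cdk1 with the denucleation list and Birc5 with the caspase inhibitors. It had 7 of 27 tested genes lower and 1, Aurka, higher, beside 5.02% and 3.42% of all tested genes. Its median log2 fold change was -0.42. The list summed to 61.6 to 72.0 FPKM in Fyco1-/- and 79.7 to 96.8 FPKM in WT libraries, without overlap. Pcna fell to 7.96 ± 0.859 FPKM in Fyco1-/-, against 13.2 ± 0.594 FPKM in WT lenses (limma adjusted p = 0.000746), and shares 781 near-identical bases with a pseudogene. Mcm6, a gene of the replication helicase, fell to 1.25 ± 0.0820 FPKM in Fyco1-/-, against 2.90 ± 0.421 FPKM in WT lenses (limma adjusted p = 0.00107). Aurkb (limma adjusted p = 0.0107) and Rrm2 (limma adjusted p = 0.0153) fell as well. The Rrm2 call was lost with no filter and without WT A, WT B or Fyco1-/- C (adjusted p = 0.0521 to 0.0601). Aurka, named after its value was seen, rose to 5.01 ± 0.290 FPKM in Fyco1-/-, against 3.24 ± 0.670 FPKM in WT lenses (limma adjusted p = 0.0238), a call lost with no filter and without each Fyco1-/- library (adjusted p = 0.0532 to 0.0844).

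Of 11 lens epithelium markers, 5 fell and 1 rose, beside 5.02% and 3.42% of all tested genes. The markers had a median log2 fold change of -0.22 and 8 negative values. They summed to 1655 to 1695 FPKM in Fyco1-/- and 1487 to 1591 FPKM in WT libraries. That sum is weighted to high genes, Fabp5 among them, so its higher level in Fyco1-/- does not describe most of the markers. The marker that rose, Fabp5, stood at 603 FPKM in Fyco1-/- and 381 FPKM in WT lenses, and Itga6, an integrin gene of that layer, fell to 33.9 FPKM in Fyco1-/-, against 55.2 FPKM in WT lenses (limma adjusted p = 4.97e-05; both named after their values were seen). The part of the proliferation and epithelium shifts in the levels of Lmnb1, Lbr and Lmna was not tested.

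The 10 mesenchyme and pericyte markers summed to 35.0 to 37.3 FPKM in Fyco1-/- and 36.3 to 46.7 FPKM in WT libraries, and the 8 endothelial markers to 32.6 to 37.7 FPKM in Fyco1-/- and 34.3 to 43.6 FPKM in WT libraries. The 10 macrophage markers summed to 4.22 to 6.03 FPKM in Fyco1-/- and 4.48 to 10.9 FPKM in WT libraries, and the erythroid markers to 102 to 241 FPKM in Fyco1-/- and 81.4 to 195 FPKM in WT libraries. These ranges overlap between the genotypes. Retina, surface epithelium and pigment markers each stayed under 3 FPKM in sum, and no listed marker found in the table was at 0 in all 6 libraries. None of the tested markers of these 7 kinds of cell was called by limma, and 4 had an unadjusted p under 0.05. Their part in the levels of the 8 genes was not tested.

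Ranked by mean FPKM over all 6 libraries, the 8 genes ran from Dnase2b through Lmnb1, Lmna, Lmnb2, Trp53inp2, Lbr and Casp6 to Trp53inp1. Dnase2b and Lmnb1 stood apart from the next gene within each genotype. Lmna and Lmnb2 overlapped in each genotype, as did Lbr with Casp6 and Casp6 with Trp53inp1. The place of Trp53inp2 differed by genotype. In Fyco1-/- its libraries, at 3.97 to 4.52 FPKM, lay above those of Lmna and Lmnb2, at 2.97 to 3.82 FPKM, and in WT its libraries, at 2.03 to 3.14 FPKM, lay below those of Lmna and Lmnb2, at 3.38 to 4.65 FPKM, and overlapped those of Lbr. Trp53inp1, at the bottom, was above 21.3% of tested genes.

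The genes most like each member over the 6 libraries were sought by Pearson correlation of log2(FPKM + 0.5) among tested genes with a mean of at least 5 FPKM. With 6 libraries, which also share their genotypes, and 5279 or 5280 genes searched, the names are a description. Trp53inp2 was closest to Snrpb (r = 0.997) and Dtnbp1 (r = 0.996), and of the genes named here Dtnbp1 was called by limma, higher in Fyco1-/-, while the others were not. Dnase2b was closest to Map2k5 (r = 0.989) and Ensa (r = 0.988), Lmnb1 to Rnf130 (r = 0.994) and Tmem2 (r = 0.993), and Crebzf (r = 0.99) was among the closest to Lbr. Lmna was closest to Npepps (r = 0.967) and Chtop (r = 0.966), Lmnb2 to Mettl1 (r = 0.996) and Tbc1d10b (r = 0.993), Casp6 to Clptm1l (r = 0.994) and Mcrs1 (r = 0.987), and Trp53inp1 to Stam (r = 0.986) and Bms1 (r = 0.969).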

How the data were processed

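Total RNA of newborn lenses was sequenced as 6 libraries. Per the labels and the design text of the series, the authors mapped reads with STAR 2.5 (GRCm38/mm10), took gene quantities from HTSeq 0.6.1 and deposited FPKM, 1 column per library, with their means per genotype. The authors also deposited a log2 fold change, p-value and adjusted p-value from DESeq2 (release not given in the sources used here).

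Genes with a mean of at least 0.5 FPKM, 12001 in number and all 8 members among them, entered limma 3.58.1 (R 4.3.3). The values were log2(FPKM + 0.5), moderation used trend and robust settings, tests were two-sided, Benjamini-Hochberg adjustment ran over all of these genes, and calls were made at 0.05. Log2 fold changes on that scale understate the change of low genes, and fold values are ratios of mean FPKM. The steps were tested on simulated data. Ratios within a library were compared by an exact two-sided permutation test. The replicates are separate pools of 10 lenses, and whether pools shared litters is not given in the sources used here. Alternatives changed the pseudocount, filter, moderation, scaling and design, and left out each library.

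Positions come from GENCODE M21 (93.1% of entries matched 1 gene by symbol), and similar transcripts from blastn 2.17.0. Stretches of at least 100 bases and 95% identity shared with other genes reached 102 bases for Lmnb2, 101 for Lmna and 440 for Lbr. Depth was estimated from the steps between low FPKM values. Of 32762 values of 1 to 20 reads, 51.2% lay within 0.05 of a whole read, where chance gives 10% at a scale fixed beforehand. The scale of each library was itself picked for a high share, so the 10% is too low a yardstick. Counts were not recovered and no counting intervals are given.

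Members and lists were chosen with earlier results of these data known. Named genes are the members, Fyco1, Dnase2a, up to 4 called genes per list by p (2 where none was called), the 2 genes most correlated with each member, and, added after their values were seen, Pink1, Aurka, Trp53, Fabp5, Itga6, Apex1 and Tmpo. Some named items, 2 of the 7 ratios and 1 list are not reported here. The protein sequences planned for display were not used here.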

Additional observations from a re-analysis of the deposited data

How the results depend on the processing

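Across 15 other settings, Dnase2b, Lmna, Lmnb2 and Casp6 kept their direction and stayed uncalled. With no filter on low genes, Trp53inp2 kept its log2 fold change of 0.60 but lost its call, so that 0 members were called higher, and 246 of all genes were called higher and 322 lower (410 and 602 as reported). The nuclear and caspase lists then had 3 genes higher and 3 lower (5 and 6 as reported). Median-of-ratios scaling called 627 genes higher, 56.5% of its calls against 40.5% as reported, and moved the median log2 fold change of all genes to -0.00321, beside -0.04 as reported. With the letters A, B and C as a replicate block, Trp53inp2 stayed called (adjusted p = 0.0303), 367 genes were higher and 562 lower, and 10 list genes were lower. Libraries of the same letter did not deviate together (r = -0.03, 0.028 and 0.027), so the letters are not read as pairs. Adding 0.5 to both values turned the Dnase2b to Dnase2a difference to 0.0597 on the log2 scale, and Dnase2a is too low to carry it. Leaving out each library in turn gave 0 to 1 members higher and 0 to 2 lower, 264 to 334 genes higher and 325 to 538 lower, and 3 to 5 list genes higher and 2 to 10 lower. Log2 fold changes then ran from -0.0379 to 0.104 for Trp53inp1, 0.45 to 0.71 for Trp53inp2, -0.43 to -0.18 for Lmnb1 and -0.54 to -0.30 for Lbr. Ratio differences ran from -0.0473 to 0.24 for Lmna to Lmnb1 and -1.13 to 0.19 for Dnase2b to Dnase2a. Total calls were 614 without WT A, 611 without WT B, 670 without Fyco1-/- B and 641 without Fyco1-/- C, against 1012 with all 6 libraries. The cause of these shifts was not tested.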
